A study of Mus musculus with 6 samples.

Results

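The genes described here are 34 genes of the skeletal muscle fibre, out of 27179 genes counted in RNA sequencing of mouse pancreatic tumours and normal pancreas. They were listed because, in both kinds of tumour, their reads lay mostly in the library numbered 2 and were nearly absent from the library numbered 1. The members were thus selected on their raw counts, replicate 2 against replicate 1 in each tumour and then normal pancreas, and these values are given below as a description. Rows were found by gene symbol in the authors' comparison tables, which list 33 of the 34 genes for H7 tumours and all 34 for UNKC tumours.

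The series holds 6 libraries of total RNA in 3 groups of 2. H7 tumours grew from PANC02-H7 cells and UNKC tumours from UN-KC-6141 cells, both mouse pancreatic carcinoma lines, which were placed surgically in the pancreas of C57BL/6 mice and taken out after 20 days. Normal pancreas is the whole organ of C57BL/6 mice, and no animal was treated. The age and sex of the animals, and whether the replicates came from separate animals, are not given in the sources used here, so any p-value below measures only the spread between these samples. Each tumour group rests on 1 cell line, and a tumour library holds the RNA of the injected cells, of host cells and of whatever tissue was dissected with them.

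Skeletal muscle fibres contract by sliding thick filaments of myosin along thin filaments of actin, inside sarcomeres bounded by Z-discs. Calcium released from the sarcoplasmic reticulum frees the thin filament through troponin, and creatine kinase and glycolysis supply the ATP. Fast and slow fibres use different genes for the same parts, and embryonic and perinatal myosins are made during development and again in regenerating fibres. Pancreas normally holds no skeletal muscle.

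Total reads per library ran from 33332516 to 40507546 in the tumours and were 12077320 and 8204225 in normal pancreas. Ribosomal RNA genes (Rn45s, Rn18s, mt-Rnr1 and mt-Rnr2) took 86.4% and 85.0% of the normal reads and 20.1% to 27.8% of the tumour reads. Levels are given as reads and as CPM, which are reads scaled to an effective library size (TMM factors); that size was 69049499 to 90280267 in the tumours but 2160360 and 2095857 in normal pancreas. A floor of 6 reads, or 3 read pairs, was thus 0.0665 to 0.0869 CPM in a tumour library and 2.78 and 2.86 CPM in a normal one. Where replicate 1 lay below the floor, the floor took its place when ratios were counted, and medians of ratios are over these lower bounds. Intervals in brackets are 95% exact binomial intervals on read pairs and cover counting error only.

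Nearly all of these genes stood far higher in replicate 2 of both tumours. Together they took 0.0154% of all reads in H7 replicate 1 and 0.471% in H7 replicate 2, and 0.00823% and 1.91% in UNKC replicates 1 and 2. Their summed level was 74.1 CPM in H7 replicate 1, 2195 in H7 replicate 2, 36.9 in UNKC replicate 1 and 8678 in UNKC replicate 2, a ratio of 29.6 in H7 and 234.9 in UNKC tumours. In normal pancreas they took 0.00201% and 0.00225% of all reads, less than in any tumour library, while their sum on TMM-scaled libraries was 112.5 and 88.3 CPM, above both tumour replicates 1. The giant gene Ttn made up most of it. All 34 genes passed the filter on low counts (16306 genes did), and 17 of them passed it with both tumour libraries numbered 2 left out.

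Of the 34 genes, 31 were at least 4-fold higher in H7 replicate 2 than in replicate 1, a fold reached by 1.74% of all tested genes. In UNKC tumours 33 were, against 2.4% of all tested genes, and 31 were in both tumours, against 1.04%. This contrast chose the genes, so nothing is read from these shares. The median ratio was 124.4 in H7 and 352.1 in UNKC tumours, beside 1.01 and 1.00 over all tested genes, and 20 and 27 genes were past 100-fold. Below the 4-fold mark lay Eno3 (1.29), Myod1 (at least 2.07) and Tnni2 (2.85) in H7 and Eno3 (2.05) in UNKC tumours, while Tnnc1 (4.64) in H7 and Tnnc1 (13.1) in UNKC tumours were the nearest above it. Each side of this contrast is 1 library, so there is no test, and in bulk tissue a larger share of muscle cells and more RNA per cell cannot be told apart.

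**Figure D1:**
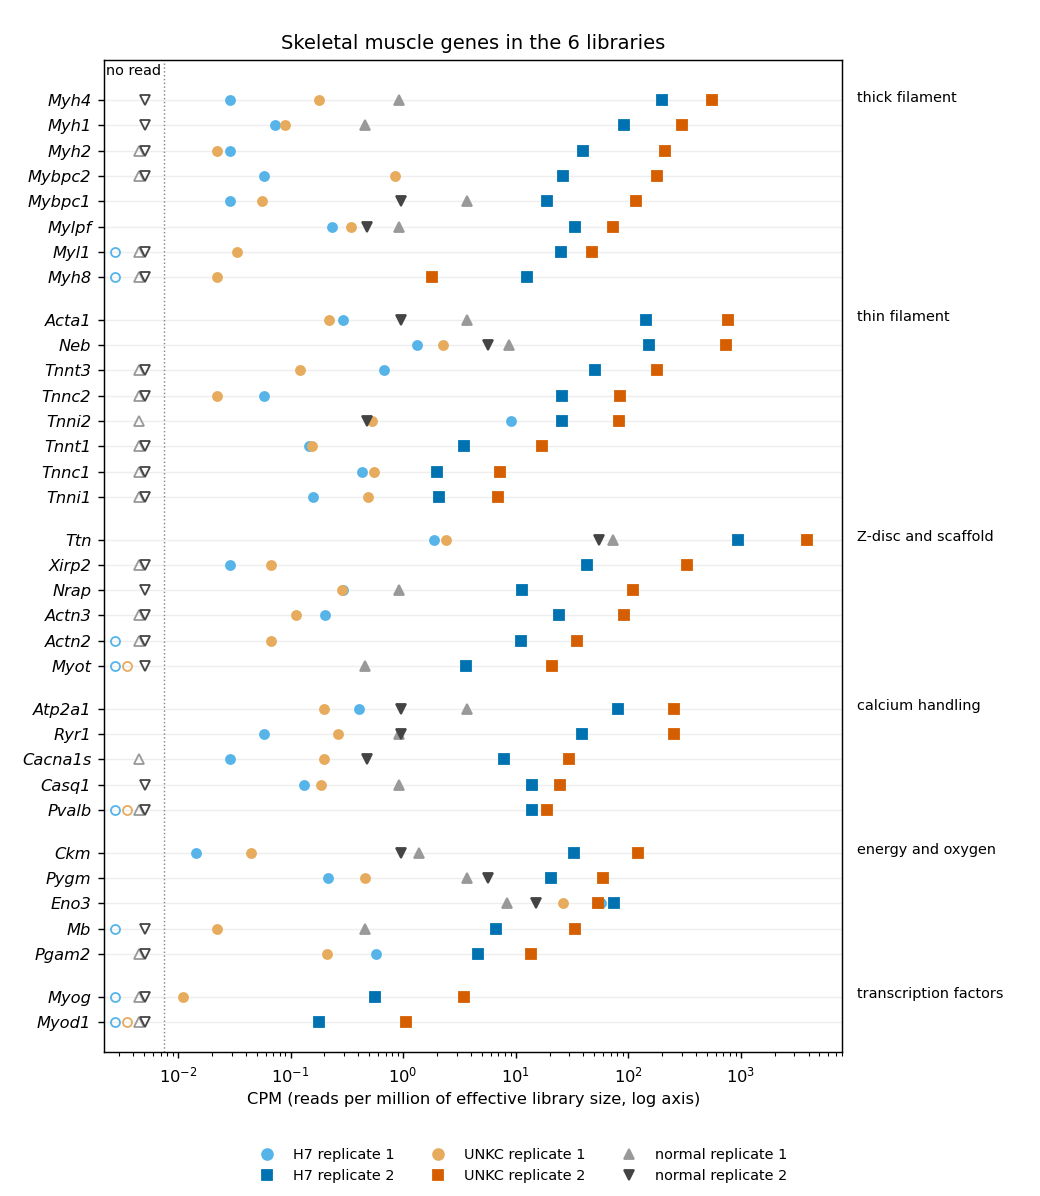
Level of each of the 34 genes in CPM on a log axis, 1 row per gene by role, with 1 symbol per library; open symbols left of the dotted line stand for libraries with no read. Within each tumour the square of replicate 2 lies to the right of the circle of replicate 1 for all 34 genes, and for Eno3 the tumour libraries lie closest together.

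The start sites of 28 of the 34 genes could be read from RefSeq (GRCm38.p6), and 4 are shown because their genes had the highest TPM (the authors' level per gene length) in UNKC replicate 2 among those read. Each window of 300 bases holds 250 bases before and 50 after the annotated start, written in the direction of the gene. Acta1 lies at chr8:123894726-123895025 (minus strand), Ckm at chr7:19410844-19411143 (plus), Tnnc2 at chr2:164779685-164779984 (minus) and Mylpf at chr7:127211358-127211657 (plus). Capitals mark the E-box CANNTG, the short motif that MyoD and myogenin, the muscle transcription factors among these genes, are known to bind; it reads the same on both strands.
Acta1: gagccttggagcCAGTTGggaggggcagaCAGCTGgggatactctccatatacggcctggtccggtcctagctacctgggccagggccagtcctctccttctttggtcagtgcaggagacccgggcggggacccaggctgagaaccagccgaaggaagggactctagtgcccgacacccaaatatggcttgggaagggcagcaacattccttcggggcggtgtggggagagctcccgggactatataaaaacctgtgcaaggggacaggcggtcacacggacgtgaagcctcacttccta
Ckm: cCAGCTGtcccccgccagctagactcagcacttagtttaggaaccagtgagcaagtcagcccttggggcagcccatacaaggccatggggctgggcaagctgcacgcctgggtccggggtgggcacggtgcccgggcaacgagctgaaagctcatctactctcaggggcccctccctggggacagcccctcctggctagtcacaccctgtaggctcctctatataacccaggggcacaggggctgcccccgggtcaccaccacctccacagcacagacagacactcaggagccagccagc
Tnnc2: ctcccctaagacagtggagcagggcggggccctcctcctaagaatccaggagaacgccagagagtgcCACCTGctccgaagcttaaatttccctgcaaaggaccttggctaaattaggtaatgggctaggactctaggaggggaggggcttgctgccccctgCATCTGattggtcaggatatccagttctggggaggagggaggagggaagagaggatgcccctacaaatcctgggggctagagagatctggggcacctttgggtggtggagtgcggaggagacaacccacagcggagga
Mylpf: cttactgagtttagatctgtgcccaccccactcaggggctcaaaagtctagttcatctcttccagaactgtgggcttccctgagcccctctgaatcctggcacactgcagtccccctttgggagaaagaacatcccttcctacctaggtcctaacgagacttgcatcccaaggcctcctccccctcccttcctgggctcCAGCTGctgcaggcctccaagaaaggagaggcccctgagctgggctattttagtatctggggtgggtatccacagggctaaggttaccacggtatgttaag
The windows of Acta1 and Tnnc2 held 2 E-boxes each and those of Ckm and Mylpf 1 each. An E-box was in the window of 25 of the 28 genes (89.3%) and of 75.0% of 27025 genes with a window. The core of the MEF2 site, CTANNNNTAG, searched on both strands, was in 2 of the 28 (7.14%) and in 4.23% of all genes, and in none of the 4 shown. These are letter matches in a short window, not sites of binding.

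Of the 8 genes of the thick filament, all 8 were past 4-fold in both tumours, with a median ratio of 297.5 in H7 and 1241 in UNKC tumours. Myh4, the myosin heavy chain of the fastest (IIb) fibres, had 2 reads in H7 replicate 1 and 15530 in replicate 2, 16 and 47463 in UNKC tumours, and 2 and 0 in normal pancreas. Its ratio was 3136 in UNKC tumours [1591 to 7265], and in H7 tumours, from 1 read pair in replicate 1, 6883 [1235 to 271885]. Thus the group means of Myh4, 99.7 ± 141 CPM (SD, n = 2) in H7 and 278 ± 393 in UNKC tumours, describe neither library. Myh1, of IIx fibres, had 5 and 7217 reads in H7 tumours, 8 and 25456 in UNKC tumours, and 1 and 0 in normal pancreas. Myh2, of IIa fibres, had 2 and 3083 reads in H7 tumours, 2 and 18098 in UNKC tumours and none in normal pancreas. Those 3 adult heavy chains had almost no read outside the libraries numbered 2.

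Myh8, the perinatal myosin heavy chain, had 0 and 990 reads in H7 tumours, 2 and 155 in UNKC tumours and none in normal pancreas. It was the only one of the 34 genes other than Eno3 with a higher level in H7 replicate 2 (12.7 CPM) than in UNKC replicate 2 (1.82 CPM). Myh2, Myh1, Myh4 and Myh8 lie side by side on chromosome 11 (from 67171027 to 67308634, GRCm38) and are close in sequence, so reads may be split between them in ways the counts do not show. Of the light chains, Mylpf, the fast regulatory chain, had 16 and 2606 reads in H7 tumours, 31 and 6309 in UNKC tumours, and 2 and 1 in normal pancreas. Myl1, the fast essential chain, had 0 and 1960 reads in H7 and 3 and 4054 in UNKC tumours, at least 289.5-fold higher in H7 replicate 2. Mybpc1 and Mybpc2, the slow and fast forms of myosin binding protein C, reached 1474 and 2068 reads in H7 replicate 2, and UNKC replicate 2 held 10036 and 15492. In the replicates numbered 1 Mybpc1 had 2 and 5 reads and Mybpc2 4 and 77.

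Of the 8 thin filament genes, 7 were past 4-fold in H7 and 8 in UNKC tumours (median ratios 49.1 and 237.9). Acta1, skeletal alpha-actin, had 20 and 11110 reads in H7 tumours, 20 and 65425 in UNKC tumours, and 8 and 2 in normal pancreas. The ratio was 492.4 [267.5 to 1027] in H7 and 3458 [1880 to 7213] in UNKC tumours. In UNKC replicate 2 Acta1 had the highest level per length of all 34 genes, 2556 TPM, against 428 TPM in H7 replicate 2. Neb (nebulin, which runs along the thin filament) had 92 and 11830 reads in H7, 206 and 62535 in UNKC tumours, and 19 and 12 in normal pancreas.

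The troponins, the calcium switch of the thin filament, came in fast and slow forms that differed in their levels in the replicates numbered 1. Tnnc2, fast troponin C, had 4 and 2003 reads in H7 tumours, 2 and 7212 in UNKC tumours and none in normal pancreas. Slow and cardiac troponin C, Tnnc1, had 30 and 157 reads in H7 and 50 and 618 in UNKC tumours, ratios of only 4.64 [2.67 to 8.73] and 13.1 [8.69 to 20.5]. Per length, the slow form was the higher of the pair in both replicates 1 (2.98 against 0.355 TPM in H7 and 3.70 against 0.150 TPM in UNKC tumours), and the fast form was higher in both replicates 2 (159 against 12.4 and 583 against 49.2 TPM). Tnnt3 and Tnnt1, fast and slow troponin T, had 47 and 10 reads in H7 replicate 1 and 3938 and 270 in H7 replicate 2. They had 11 and 14 reads in UNKC replicate 1 and 15344 and 1456 in UNKC replicate 2. Tnni1, slow troponin I, had 11 and 162 reads in H7 and 44 and 599 in UNKC tumours, and no normal library held a read of Tnnt1, Tnnt3, Tnni1, Tnnc1 or Tnnc2.

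Tnni2, fast troponin I, stood apart in H7 tumours: 627 reads in replicate 1 and 2013 in replicate 2, against 48 and 7033 in UNKC tumours and 0 and 1 in normal pancreas. Per length it was at 60.5 TPM in H7 replicate 1, while the other 7 thin filament genes in that library ranged from 0.246 (Neb) to 2.98 TPM (Tnnc1). The other fast troponins, Tnnt3 (2.96 TPM) and Tnnc2 (0.355 TPM), were thus far below it there.

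All 6 genes of the Z-disc and the sarcomere scaffold were past 4-fold in both tumours, with median ratios of 124.4 and 676.9. Ttn, titin, the molecular spring that spans from Z-disc to M-line, had 130 and 74222 reads in H7 tumours, 217 and 328862 in UNKC tumours, and 158 and 116 in normal pancreas. Titin made up 43.4% and 44.4% of the reads of the 34 genes in the replicates numbered 2. Its transcript is also the longest, 104320 bases, and per length it was at 39.2 TPM in H7 and 176 TPM in UNKC replicate 2, under Acta1. Xirp2, an actin-binding protein of the Z-disc region, had 2 and 3371 reads in H7 and 6 and 28404 in UNKC tumours, with none in normal pancreas. Its ratio in UNKC tumours, from 3 read pairs in replicate 1, was 5005 [1712 to 24272].

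Nrap, a protein of myofibril assembly and the muscle-tendon junction, had 20 and 892 reads in H7 and 26 and 9424 in UNKC tumours, ratios of 39.5 [21.3 to 83.0] and 383.2 [223.9 to 720.2]. Actn2 and Actn3, the muscle alpha-actinins that anchor thin filaments, had 0 and 14 reads in H7 replicate 1 and 869 and 1903 in H7 replicate 2. In UNKC tumours they had 6 and 10 reads in replicate 1 and 2987 and 7828 in replicate 2. Myot, myotilin, had no read in replicate 1 of either tumour, and 284 and 1795 in the replicates 2. Ttn was thus the only one of these 6 genes with more than 2 reads in any normal library.

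The 5 calcium handling genes were all past 4-fold in both tumours (median ratios 161.6 and 286.7). Ryr1, the calcium release channel, had 4 and 3020 reads in H7, 24 and 21831 in UNKC tumours, and 2 and 2 in normal pancreas. Cacna1s, the voltage sensor that opens it, had 2 and 617 reads in H7 and 18 and 2532 in UNKC tumours. Atp2a1, the fast calcium pump, had 28 and 6299 reads in H7, 18 and 21844 in UNKC tumours, and 8 and 2 in normal pancreas. The release channel and the uptake pump were therefore read in the same libraries. Casq1, calsequestrin, which stores calcium, had 9 and 1082 reads in H7 and 17 and 2125 in UNKC tumours. Pvalb, parvalbumin, the calcium buffer of fast fibres, had no read in either replicate 1 or in normal pancreas, and 1094 and 1627 reads in the replicates 2. Pvalb was at least 161.6-fold higher in H7 replicate 2 and at least 286.7-fold higher in UNKC replicate 2 than in replicate 1.

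Of the 5 genes of energy supply and oxygen storage, 4 were past 4-fold in each tumour. Ckm, muscle creatine kinase, had 1 and 2567 reads in H7, 4 and 10373 in UNKC tumours, and 3 and 2 in normal pancreas. Pygm, the glycogen phosphorylase of muscle, had 15 and 1605 reads in H7, 41 and 5104 in UNKC tumours, and 8 and 12 in normal pancreas. Pgam2, the muscle phosphoglycerate mutase, had 40 and 364 reads in H7 and 19 and 1168 in UNKC tumours, with ratios of 8.07 [5.07 to 13.5] and 65.0 [33.3 to 129.4]. Mb, myoglobin, which stores oxygen, had 0 and 526 reads in H7 and 2 and 2878 in UNKC tumours.

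For Mb and Ckm the 2 kinds of count that the authors deposited did not match. A read pair is 1 fragment, and the fragment counts in the authors' tables were within 1.1 times the read pairs in both replicates 2 except for 3 of the genes. Ckm had 1915 fragments against 1283.5 read pairs in H7 replicate 2 and 7389 against 5186.5 in UNKC replicate 2. Mb had 333 fragments against 263 pairs in H7 replicate 2, and 33 fragments against no read in H7 replicate 1, where its TPM was 3.24 beside 29.4 in replicate 2. Myh8 had 559 fragments against 495 pairs in H7 and 94 against 77.5 in UNKC replicate 2. In UNKC tumours Mb had 16 fragments against 1 read pair in replicate 1, and 1449 against 1439 in replicate 2. The size of the Mb ratio thus rests on which count is used in both tumours.

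Eno3, beta-enolase, the muscle form of a glycolytic enzyme, was read in every library: 3983 and 5806 reads in H7, 2387 and 4634 in UNKC tumours, and 18 and 32 in normal pancreas. It alone made up 77.8% of the reads of the 34 genes in H7 replicate 1 and 71.6% in UNKC replicate 1. Its level was 66.1 ± 11.9 CPM (SD, n = 2) in H7 tumours, 40.4 ± 19.7 in UNKC tumours and 11.8 ± 4.91 in normal pancreas. Without Ttn, Eno3 and Tnni2, a choice made after these values were seen, the summed level was 5.50 and 1142 CPM in H7 and 7.57 and 4691 CPM in UNKC tumours.

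The myogenic transcription factors, Myod1 and Myog, which switch on muscle genes in myoblasts, had few reads. Myod1 had 0 and 14 reads in H7 and 0 and 90 in UNKC tumours. Myog had 0 and 44 reads in H7 and 1 and 296 in UNKC tumours, and neither gene had a read in normal pancreas. Per length Myog was at 1.64 TPM in H7 and 11.2 in UNKC replicate 2, and Myod1 at 2.72 TPM in UNKC replicate 2. The transcription factors made up 0.153% of the TPM of the 34 genes in UNKC replicate 2, where the thin filament made up 53.1%, the thick filament 20.9%, energy and oxygen 11.7%, the Z-disc and scaffold 7.28% and calcium handling 6.86%. In H7 replicate 2 the same roles took 42.5%, 24.6%, 18.6%, 5.19% and 9.07% in that order.

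**Figure D2:**
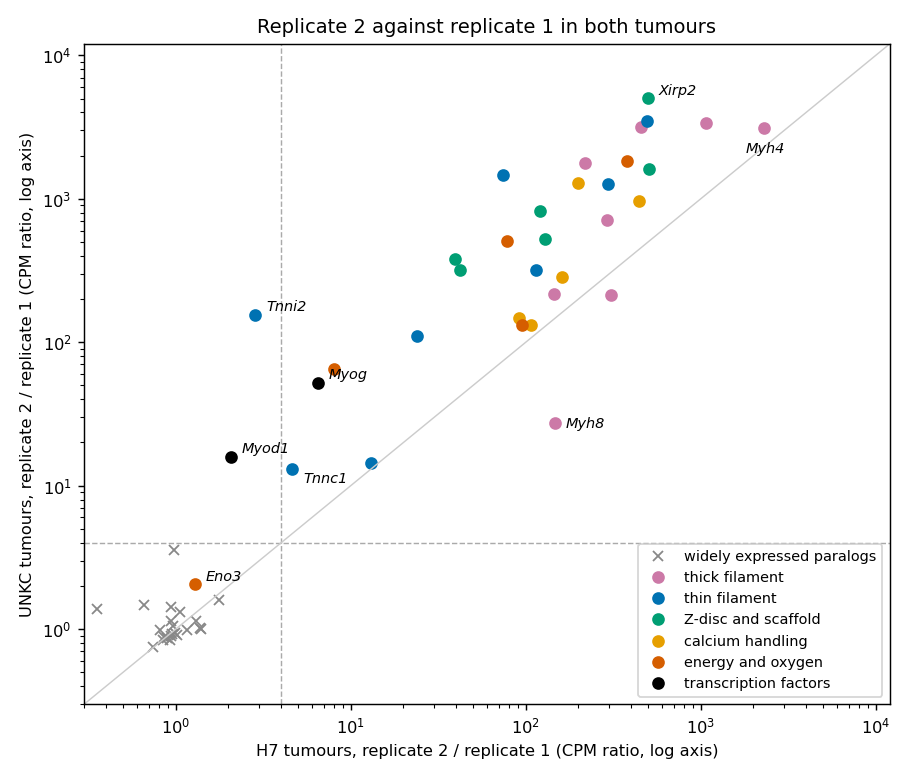
Ratio of replicate 2 to replicate 1 in H7 tumours (x axis) and in UNKC tumours (y axis), both as CPM ratios on log axes, with lower bounds where replicate 1 was under the floor. Coloured points are the 34 genes by role, crosses are 22 widely expressed paralogs and related enzymes, dashed lines mark 4-fold and the grey line marks equal ratios. Eno3 (1.29 and 2.05) lies with the crosses, and Myh8 (146.3 and 27.3) is well below the grey line.

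Most genes were higher in UNKC replicate 2 than in H7 replicate 2, by similar factors. The level was higher in UNKC replicate 2 for 32 of the 34, with a median ratio of 3.64, and 28 lay within 2-fold of that median. Nrap (9.64 [8.74 to 10.6]) and Xirp2 (7.69 [7.31 to 8.09]) had the highest ratios. At the other end Pvalb was 1.36-fold [1.22 to 1.52] and Casq1 1.79-fold [1.61 to 1.99] higher in UNKC replicate 2. Eno3 was 1.37-fold [1.30 to 1.45] and Myh8 7.0-fold [5.47 to 8.95] higher in H7 replicate 2. Across the 34 genes the log2 CPM of the 2 libraries had a Pearson correlation of 0.905 and a Spearman correlation of 0.903, given as a description; the points share gene length, and both libraries are of tumour tissue. The gap between these 2 libraries has no replicate behind it, so it does not compare the tumour types.

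**Figure D3:**
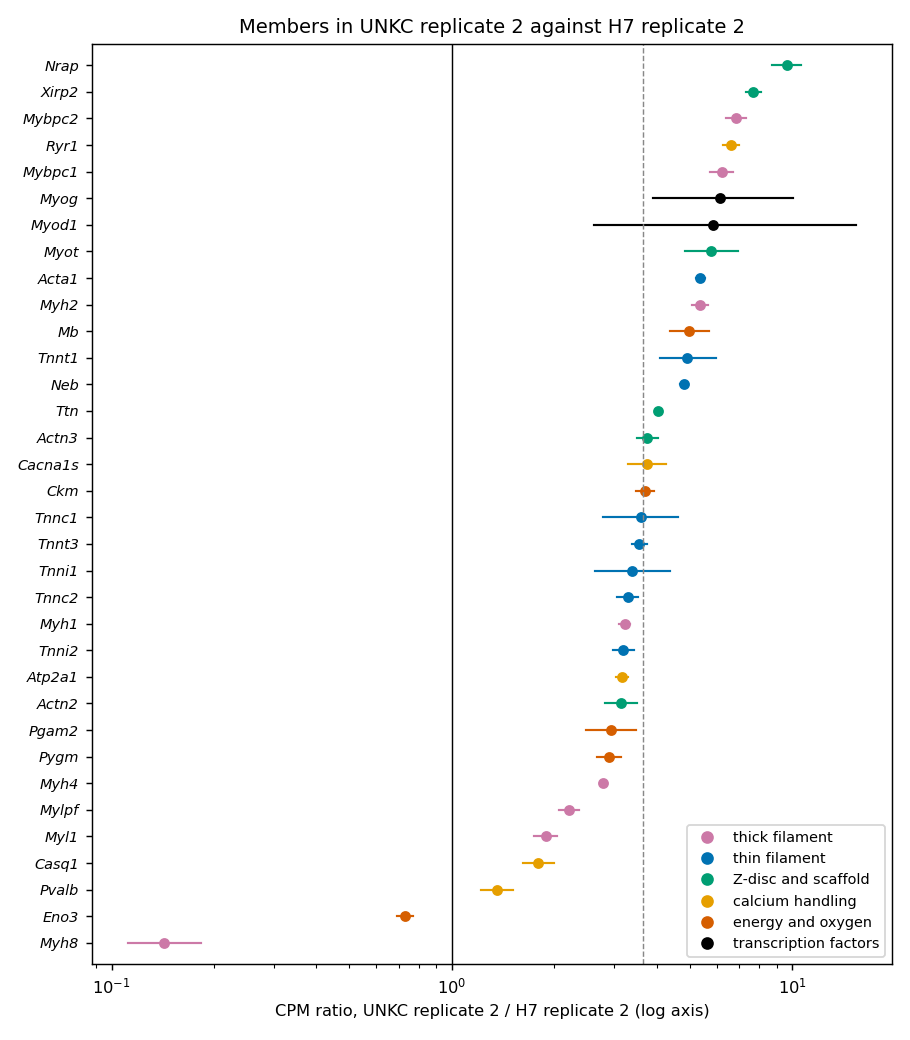
CPM ratio of UNKC replicate 2 to H7 replicate 2 for each of the 34 genes on a log axis, with 95% counting intervals as lines and roles as colours; the solid line is equal levels and the dashed line the median of 3.64. Only Myh8 and Eno3 lie left of the solid line.

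Heavy chains of fast, slow and developing fibres were set against each other in these 2 libraries, as RNA. The make-up of the fibres was not measured. Of the fragments of 6 heavy chain genes (14172 in H7 and 48521 in UNKC replicate 2), fast IIb Myh4 took 54.8% [54.0 to 55.6] in H7 and 48.9% [48.5 to 49.4] in UNKC replicate 2. Myh1 took 25.5% and 26.2%, and Myh2 10.9% and 18.7%. Slow Myh7, which is not among the 34 genes, took 2.76% [2.50 to 3.04] in H7 and 5.77% [5.56 to 5.98] in UNKC replicate 2. Fast chains thus made up most of the fragments of these 6 genes in both libraries, and the slow chain had a larger share in UNKC replicate 2. The widely expressed heavy chain Myh9, at 597 TPM in H7 and 850 TPM in UNKC replicate 2, is not among the 6.

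The developmental chains went the other way. Perinatal Myh8 took 3.94% [3.63 to 4.28] in H7 replicate 2 and 0.194% [0.157 to 0.237] in UNKC replicate 2. Embryonic Myh3, also outside the list, took 2.19% [1.95 to 2.44] and 0.223% [0.183 to 0.269], with 620 reads in H7 replicate 2 (4 in replicate 1) and 217 in UNKC replicate 2 (2 in replicate 1). Both developmental chains therefore had a share in H7 replicate 2 that lay above its counting interval in UNKC replicate 2. Actc1, the cardiac actin that fetal skeletal muscle also makes, had 98 reads in H7 and 44 in UNKC replicate 2. Shares computed from the TPM in the authors' tables lay within these intervals. The fragments are from the same tables, so this is no separate check. For Myh8 these fragments exceeded the read pairs, 559 against 495 in H7 and 94 against 77.5 in UNKC replicate 2.

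**Figure D4:**
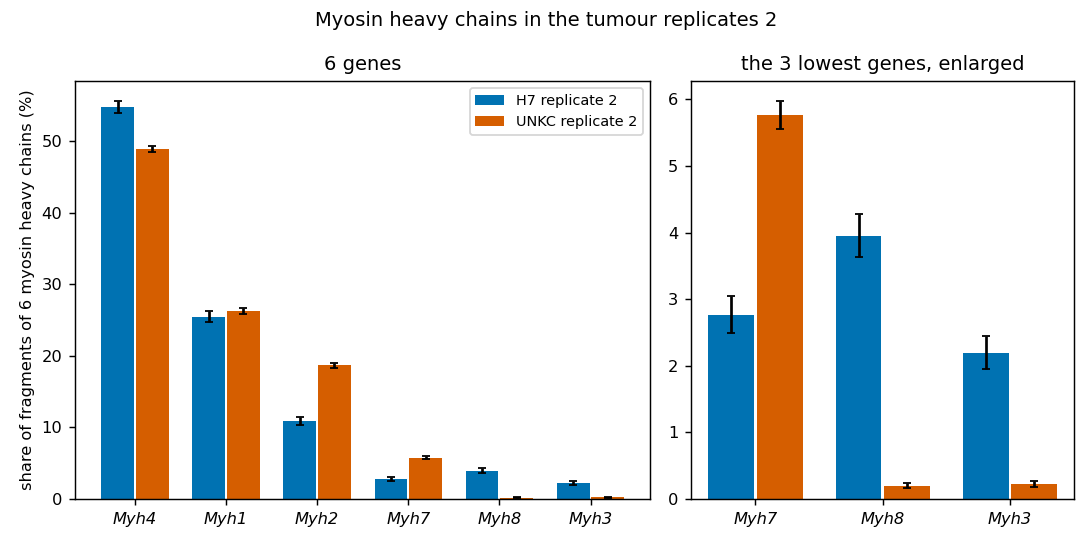
Share of the fragments of 6 myosin heavy chain genes in percent, in H7 replicate 2 and UNKC replicate 2, with 95% exact binomial intervals; the right panel enlarges the 3 lowest genes. Myh4 is the largest bar in both libraries, and Myh8 and Myh3 are higher in H7 replicate 2.

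Ratios of fast to slow forms, taken per length from the authors' TPM, were above 1 for 9 of the 10 pairs in H7 replicate 2 and for all 10 in UNKC replicate 2. Myh4 to Myh7 was 20.0 in H7 and 8.54 in UNKC replicate 2, Mylpf to Myl2 18.2 and 5.47, and Myl1 to Myl3 49.5 and 18. Troponin pairs were closer between the libraries: Tnni2 to Tnni1 was 20.6 and 19.7, Tnnc2 to Tnnc1 12.9 and 11.8, and Tnnt3 to Tnnt1 12.2 and 8.77. Casq1 to Casq2 was 9.73 and 5.70, Actn3 to Actn2 2.29 and 2.74, and Mybpc2 to Mybpc1 1.53 and 1.69. The pair below 1 in H7 was Atp2a1 to Atp2a2 at 0.961, against 1.95 in UNKC replicate 2, and Atp2a2, the slow-twitch and cardiac pump, is also made by most other cells. In the replicates numbered 1 the same pair was at 0.0047 and 0.00243.

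Muscle forms were also set against the widely expressed form of the same enzyme or protein. Ckm to Ckb went from 0.00568 to 6.92 between H7 replicates 1 and 2 and from 0.0118 to 30.7 in UNKC tumours. Pgam2 to Pgam1 went from 0.159 to 1.46 and from 0.0720 to 5.23, and Pygm to Pygb from 0.00499 to 0.528 and from 0.0133 to 2.05. Acta1 to Actb reached 0.0825 in H7 and 0.436 in UNKC replicate 2, Myh4 to Myh9 0.239 and 0.520, Actn3 to Actn4 0.179 and 0.765, and Cacna1s to Cacna1c 9.75 and 9.29. Eno3 to Eno1 was 0.587 and 0.902 in the H7 replicates and 0.289 and 0.706 in the UNKC replicates, the only one of these pairs with both values of a tumour within 3-fold. Of 22 widely expressed paralogs and related enzymes, none was 4-fold higher in replicate 2 of either tumour, and their median ratios were 0.951 and 0.993.

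Other genes of muscle fibres, from lists chosen with earlier results of these libraries known, lay higher in the same libraries. Of 93 such genes 90 were tested. Of the 93, 64 were at least 4-fold higher in H7 replicate 2, 71 in UNKC replicate 2, 59 in both, and none 4-fold lower. Their median ratios were 9.01 and 39.9. Among all tested genes 1.74%, 2.4% and 1.04% were past the same fold in H7, in UNKC and in both tumours. Of the 36 other sarcomere genes 32 were past 4-fold in each tumour, among them Des (desmin, the muscle intermediate filament), with 49 and 1841 reads in H7 and 397 and 18104 in UNKC tumours. Flnc (filamin C) had 65 and 1503 reads in H7 tumours, a ratio of 20.5, and 4672 and 17659 in UNKC tumours, a ratio of 3.996, just under 4-fold. Tpm1, a tropomyosin that many cells make, was at 276.4 and 353.0 CPM in H7 tumours. Of the 29 calcium and membrane genes 17 and 19 were past 4-fold, and of the 28 energy genes 15 and 20, while Asph, Idh3a and Gys1, read in many tissues, were not.

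Of 18 genes of muscle stem cells and regeneration, 4 were past 4-fold in H7 and 6 in UNKC tumours. Pax7, which marks satellite cells, the stem cells of muscle, had 0 and 2 reads in H7 and 1 and 19 in UNKC tumours, and Myf5 0 and 3 and 0 and 10. Myf6, a myogenic factor of mature fibres, had 0 and 36 reads in H7 and 0 and 402 in UNKC tumours. Ncam1, Mef2a and Six4, also made by other cells, had ratios of 4.62, 1.05 and 0.703 in H7 tumours and of 1.14, 1.03 and 1.05 in UNKC tumours. Smyd1, a muscle methyltransferase, had 4 and 174 reads in H7 and 12 and 808 in UNKC tumours. Itga7, a laminin-binding integrin of muscle, had 92 and 240 reads in H7 and 156 and 1507 in UNKC tumours, ratios of 2.31 and 10.2. Cdh15 (M-cadherin) had 0 and 36 reads in H7 tumours but 716 and 610 in UNKC tumours. The genes of this list thus did not share 1 pattern: Pax7 and Myf5 had at most 19 reads in any library, while Cdh15 had many in both UNKC replicates.

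Markers of other cell types that could hold some of the same genes moved less. Of 12 heart markers 2 were past 4-fold in H7 and 4 in UNKC tumours. Myh6, a heart myosin heavy chain, had at most 10 reads in a tumour library, and Tnnt2 had 9748 and 7288 reads in UNKC tumours. Of 11 smooth muscle markers 1 and 3 were past 4-fold, with Des, shared with the sarcomere list, among them; Acta2 was at 155.8 and 152.9 CPM in H7 and 21.3 and 39.4 in UNKC tumours. The summed fat cell markers went from 23.5 to 29.2 CPM in H7 and from 26.6 to 59.3 in UNKC tumours (0 and 4 of 10 past 4-fold), with Adipoq at 0 reads in both H7 libraries and 4 and 100 in UNKC tumours. Brown fat markers were 1 and 3 of 7 past 4-fold, with Ucp1 at 8 reads or fewer in every library. Cox8b and Cox7a1 are shared with the muscle energy list. Cox8b was the 1 in H7 (at least 7.98-fold), and Cox8b (at least 51.5-fold) and Cox7a1 (4.98-fold) were among the 3 in UNKC tumours. Tendon markers were 1 and 3 of 9 past 4-fold, with Tnmd at 0 and 26 reads in H7 and 0 and 24 in UNKC tumours.

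Fibroblast markers went from 701 to 1385 CPM in H7 (2 of 8 past 4-fold) and from 1942 to 3107 in UNKC tumours (0 of 8), nerve markers were 0 and 2 of 9 past 4-fold, and mesothelial markers 1 and 0 of 6. None of the hepatocyte, keratinocyte, red cell, endothelial or acinar markers was 4-fold higher in a replicate 2. Acinar markers, of the enzyme-making cells of the pancreas, were at 33.8 and 43.1 CPM in H7 tumours and at 14.3 and 2.79 CPM in UNKC replicates 1 and 2, where 5 of 10 were 4-fold lower, against 13075 and 11803 CPM in normal pancreas. The part of these other cells in the muscle gene levels was not tested.

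**Figure D5:**
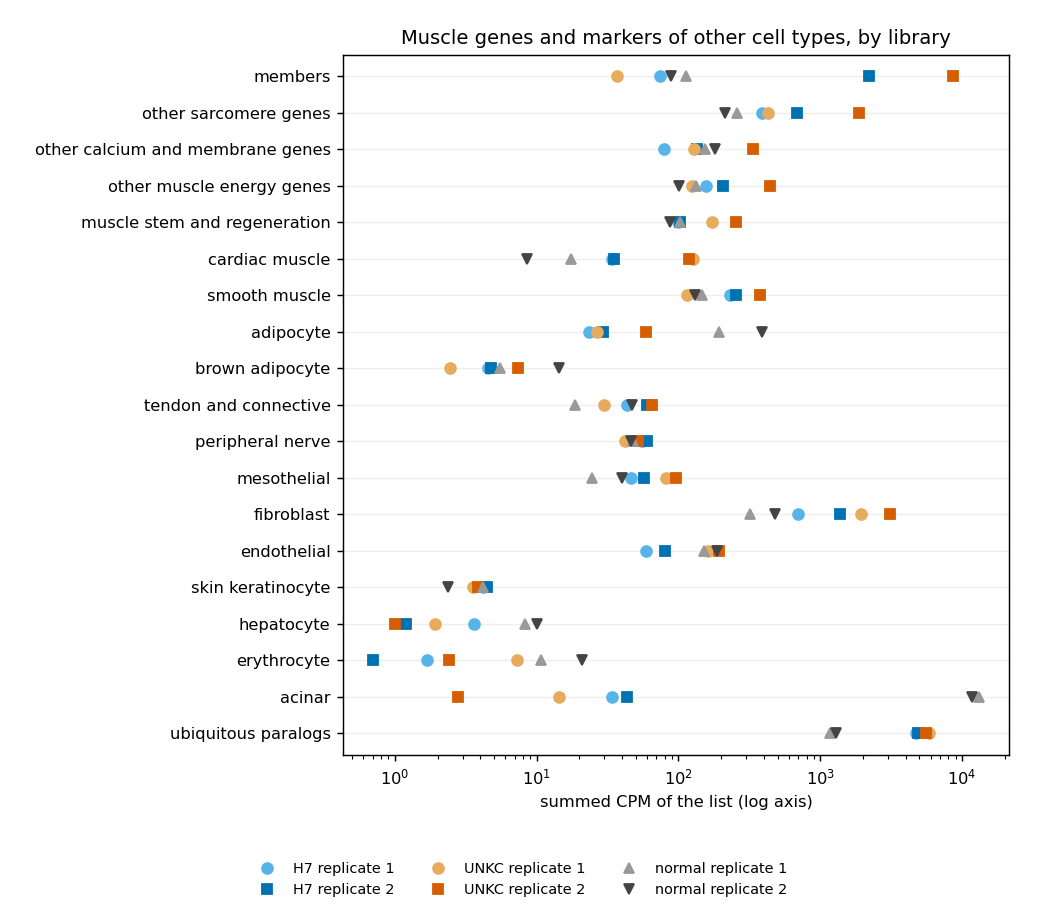
Summed CPM of the 34 genes and of 18 lists of other genes in each of the 6 libraries, on a log axis. The squares of the tumour replicates 2 stand far apart from the circles of replicates 1 for the 34 genes in both tumours. The sum of the other sarcomere genes was 4.44-fold higher in UNKC replicate 2 but only 1.78-fold in H7 replicate 2, less than fibroblast markers (1.98). In UNKC tumours other muscle energy genes (3.56), smooth muscle markers (3.32) and brown fat markers also separate upward, and acinar markers (0.195) downward. The widely expressed paralogs overlap in all 4 tumour libraries.

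Among genes outside the list with at least 10 CPM in the higher replicate of both tumours (6278 genes), 9 were at least 4-fold higher in replicate 2 of both, and 6 of them were on the muscle lists. Myom2, an M-line protein of fast fibres, was at 0.0290 and 10.1 CPM in H7 tumours and at 0 and 25.4 CPM in UNKC tumours. The 3 that were on no list were Car3 (carbonic anhydrase 3, of muscle and fat), H19 (an imprinted long noncoding RNA) and Aspn (asporin, of connective tissue). Car3 was at 0.0579 and 12.9 CPM in H7 and 0.354 and 38.6 in UNKC tumours, but at 43.5 and 100.7 in normal pancreas. H19 was at 2.04 and 27.9 CPM in H7 tumours and at 10.5 and 140.7 CPM in UNKC tumours. Fhl1, Des, Cmya5 and Srl were also among the 9, and the 10th in rank, Flnc, was 3.996-fold in UNKC tumours.

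In the other direction, 2 genes past the same minimum were at least 4-fold lower in replicate 2 of both tumours, Ltf (lactoferrin) and Lcn2 (lipocalin 2), proteins of neutrophil granules that epithelia also make. Ltf went from 22.7 to 1.16 CPM in H7 and from 16.1 to 2.79 in UNKC tumours, and Lcn2 from 26.2 to 6.44 and from 30.9 to 6.21. The next in rank, Dmbt1, was at 392.7 and 58.6 CPM in H7 and 859.4 and 463.3 in UNKC tumours.

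Normal pancreas had few reads of these genes: 16 of the 34 had none in either normal library, and 27 had at most 6 reads over both. Only Ttn, Neb, Eno3 and Pygm had more than 6 reads in each. Titin was at 73.1 and 55.3 CPM in normal pancreas, above its 1.88 and 2.40 CPM in the tumour replicates 1 under all 3 scalings tried. For Neb (8.79 and 5.73 against 1.33 and 2.28) and Pygm (3.70 and 5.73 against 0.217 and 0.454) that order did not hold when libraries were scaled by total reads. Total reads shift the median log2 fold of all genes by 3.27 for H7 and 3.36 for UNKC tumours against normal pancreas.

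Set against normal pancreas with both tumour replicates, the edgeR quasi-likelihood test called 1 of the 34 genes in H7 tumours, where 29.6% of all tested genes were called higher, and 1 in UNKC tumours, against 29.1%. The 34 genes were chosen for a wide gap between replicates, which the test counts as spread. Few calls thus follow from that choice, and nothing is read from these counts. The gene called in both comparisons was Eno3, whose replicates differed least. It was higher in H7 tumours by 2.49 (SE 0.449) on the log2 scale (edgeR adjusted p = 0.00515) and in UNKC tumours by 1.78 (SE 0.444, adjusted p = 0.0187). For UNKC tumours that call was lost without normal replicate 1 (log2 fold 1.42, edgeR adjusted p = 0.0874) and with the authors' fragment counts (1.59, adjusted p = 0.0513). Acta1, with a fitted log2 fold of 7.35 (SE 4.13) in UNKC tumours, had an edgeR adjusted p of 0.193. The median fitted log2 fold of the 34 genes was 6.60 and 8.24, beside 0.336 and 0.416 over all genes, and these fits depend on normal libraries at 0. DESeq2 on the same counts called 3 and 17 of the 34 genes, against 9568 and 8961 of all 16306 genes in either direction. The 2 comparisons share the normal libraries.

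Between the tumours edgeR called 0 of the 34 genes (0 at an unadjusted p under 0.05), against 18.2% of all tested genes in either direction. DESeq2 called 0 as well, against 5409 of all 16306 genes. The gap between replicates that chose the genes widens their spread here too, so nothing is read from this count. The edgeR count changed when the replicate number was entered as a block, as given in the last section. Eno3 had the smallest edgeR adjusted p, 0.277, and was lower in UNKC tumours by a log2 fold of -0.71 (SE 0.388). Myh8, higher in H7 replicate 2, had a log2 fold of -2.80 (SE 2.35, edgeR adjusted p = 0.499). Without UNKC replicate 2, edgeR called 1 gene, Tnni2, lower in UNKC tumours.

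In the authors' deposited table for H7 tumours against normal pancreas, 2 of 33 listed members were called higher, Tnni2 (log2 fold 4.16) and Eno3 (2.24), against 23.1% of its genes. For UNKC tumours the authors' deposited table called 9 of 34 higher, against 22.6%. In the authors' deposited table those were Myh2 (0.164), Xirp2 (0.165), Myh4 (0.279), Acta1 (0.396), Ryr1 (0.468), Neb (0.608), Tnni2 (0.886), Mylpf (1.01) and Eno3 (1.35). The log2 folds of the authors' deposited table are small beside the levels of these genes: Xirp2 had 28404 reads in UNKC replicate 2 and none in normal pancreas. Its median over the members was 0.357 for H7 and 0.405 for UNKC tumours, beside 0.109 and 0.110 over all its genes. The choice of the genes by the gap between replicates bears on the authors' calls too.

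Of the 90 other muscle genes tested, edgeR called 6 higher and 3 lower in H7 tumours and 7 higher and 2 lower in UNKC tumours against normal pancreas. Over all 16306 tested genes, 29.6% and 29.1% were called higher, and 8391 and 7888 genes were called in either direction. Between the tumours 18.2% of all tested genes were called. Tpm1 (log2 fold 2.43 in both, edgeR adjusted p = 0.00049 and 0.000527), Tpm3, Ak1 (adenylate kinase 1), Idh3a, Gys1 and Adssl1, mostly genes that other tissues read too, were higher in both tumours. Ppargc1a, the coactivator of mitochondrial genes, was lower in both (-6.70 and -2.28) and, between the tumours, higher in UNKC (4.42, edgeR adjusted p = 0.00208). Tpm3 was the other gene called between the tumours, also higher in UNKC (0.58, edgeR adjusted p = 0.0265). The others called against normal pancreas were Synpo2 and Dysf, lower in H7, Chrna1, higher in UNKC, and Phka1, lower in UNKC tumours. Of the sarcomere genes past 4-fold between replicates, Synpo2 alone was called, in the direction of the normal libraries.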

How the data were processed

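Per the submitters' processing notes, the authors used STAR, featureCounts, DESeq2 1.18.1 and mm10; strand and annotation are not given in the sources used here. The deposited per-sample files hold raw counts of both mates of a pair (median 1.98 to 2.00 reads per fragment). The authors' 2 comparison tables hold fragment counts, TPM, log2 fold changes and p-values with adjusted p-values, all as the authors deposited them.

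The members and all lists were chosen with earlier results of these data known. Counts of 27179 genes were filtered (filterByExpr, 16306 genes), scaled with TMM and fitted in 1 edgeR 4.0.16 quasi-likelihood model of all 6 libraries (R 4.3.3, limma 3.58.1), with Benjamini-Hochberg adjustment and a threshold of 0.05. DESeq2 1.42.0 was an alternative. Python 3.11.15, pandas 2.3.3, SciPy 1.17.1, NumPy 2.4.6 and matplotlib 3.10.9 gave ratios, intervals and figures. The fit was tested on simulated data with the same spread for all genes and no gap between replicates. That setting is unlike the members, so the test says nothing about them. Members are all named. Other genes were ranked by their ratios of replicate 2 to 1 in the 2 tumours. Chosen were the 10 highest by the smaller ratio, the 10 lowest by the larger ratio, up to 4 per list, and fixed isoform pairs. The values of 1 of these other genes are not reported here. Other listed genes (Myh3 and Pax7, for example) were chosen after their values were seen. Symbols turned to dates in the tables were read from RefSeq. Normal libraries had the lowest depth and most ribosomal RNA, so 1 read there is worth more CPM.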

Additional observations from a re-analysis of the deposited data

How the results depend on the processing

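Members higher in replicate 2 were also counted under other scalings, no filter, 2-fold and 8-fold thresholds and the authors' fragment counts. They numbered 29 to 33 in H7 and 33 to 34 in UNKC tumours, out of at most 34. Of all 16306 tested genes, 847 passed 2-fold and 124 passed 8-fold in H7 tumours, and 979 and 245 in UNKC tumours. This contrast chose the genes, so nothing is read from how little the member counts moved. The number of members called against normal pancreas moved with the setting. In H7 tumours it was 1, against 8391 of all 16306 genes in either direction. It became 2 with total counts (13234 of all genes called) and 3 with DESeq2 (9568). A fit of 4 libraries gave 2 (13 members entered, 7245 of 14616 genes called). The fragment counts gave 2 (10 members entered, 6666 of 13237 genes called). In UNKC tumours it was 1, against 7888 of all 16306 genes. It became 12 with total counts (13812 of all genes called) and 17 with DESeq2 (8961). The fragment counts gave 0 (10 members entered, 6540 of 13851 genes called). With both tumour libraries numbered 2 left out it was 0 in each comparison (17 members entered), and edgeR then called 0 of all genes, so that fit says nothing about stability. Leaving out each library in turn gave 1 to 2 members in H7 tumours, 0 to 3 in UNKC tumours and 0 to 1 between the tumours; the spread of a lone library is taken from the rest. The cause of these moves was not tested.

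With the replicate number as a block, the counts were 17 in H7 tumours and 22 in UNKC tumours against normal pancreas and 11 between the tumours. Of all 16306 tested genes, 7973, 7459 and 3212 were called in the same 3 comparisons, in either direction. The labels do not say that the numbers pair samples. Differences of replicate 2 from replicate 1 correlated across 16306 genes at r = 0.526 between H7 and UNKC tumours (0.281 without the muscle lists), at -0.01 between H7 tumours and normal pancreas and at -0.02 between UNKC tumours and normal pancreas. Because the labels name no pairs, the main fit treated the samples as sharing only a number. What the 2 tumours share between replicates was left in its spread, and the number of members called depends on that choice.

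The summed level of the members in normal pancreas, above that of the tumour replicates 1 with TMM, was below it with total counts (20.1 and 22.5 CPM against 153.6 in H7 and 82.3 in UNKC replicate 1). Low depth in normal pancreas, where 6 reads are 2.78 and 2.86 CPM, limits what can be seen there.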
